A study of Homo sapiens with 6 samples.

Results

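A set of 10 genes of the Hippo output was read out of an RNA sequencing table of 20030 genes: the coactivator genes YAP1 and WWTR1, the transcription factor genes TEAD1 and TEAD4, and CTGF, CYR61, ANKRD1, AMOTL2, LATS2 and AJUBA. They were chosen by name, and all 10 were found in the table, which writes CTGF and CYR61 by these older symbols for CCN2 and CCN1. The cells were 786-O, an established line from a clear cell renal cell carcinoma (ccRCC) that lacks a functional VHL gene, at passages 16 to 18. Both groups carried a lentiviral small hairpin RNA (shRNA) and had been selected with puromycin: in shYB1 the hairpin targeted YB1, a cold shock domain protein that binds DNA and RNA, and in vector it was a scrambled sequence. There were 3 libraries of total RNA in each group, numbered 1 to 3. The deposited series mentions several independent hairpins against YB1, whereas the labels give a single shYB1 group without naming a hairpin. Nothing states that the 3 libraries of a group came from separate cultures, so the p-values measure the spread between these libraries, which may be technical.

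The Hippo pathway is a kinase cascade that limits growth in response to cell contact, polarity and mechanical state. When its kinases MST1/2 and LATS1/2 are active, the coactivators YAP and TAZ are phosphorylated, held in the cytoplasm by 14-3-3 proteins or degraded. When the kinases are inactive, YAP and TAZ enter the nucleus and bind TEAD factors, which carry them to target genes such as CTGF, CYR61 and ANKRD1. Some targets, among them AMOTL2 and LATS2, restrain YAP and TAZ in turn. YAP and TAZ are regulated largely at the protein level, which mRNA values do not measure.

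Among these genes the mRNA of CTGF fell by 10.9% in shYB1, those of WWTR1 and AJUBA rose by 11.9% and 10.1%, and those of YAP1, TEAD1, TEAD4, CYR61, AMOTL2 and LATS2 did not pass the test. ANKRD1 was nearly silent in the vector libraries and 3.82 times higher in shYB1, still under 1 FPKM in every library. FPKM divides the fragments of a gene by its length in kilobases and by the fragments mapped in that library, so that levels of genes of different length can be compared. Groups were compared with limma on log2(FPKM + 0.1), and a gene was called when its Benjamini-Hochberg adjusted p over all 10439 genes tested was below 0.05. Every log2 fold change is therefore on the log2(FPKM + 0.1) scale, except in alternative settings with another pseudocount. All are given as shYB1 against vector. The percentages and the 3.82 times above instead compare mean FPKM. On the log2(FPKM + 0.1) scale ANKRD1 rose by 1.50, in a fit without a filter on low values. Of the 9 members tested, 2 were higher and 1 was lower, where 18.7% of all genes tested were called higher and 6.93% lower. Counts this small are near the background share and are no result about the members as a group.

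The scaling of the libraries bears on these small differences. With FPKM as deposited, the median gene rose by 0.055 on the log2 scale, and 1956 genes were higher against 723 lower. When libraries were instead scaled by their median ratio to a common reference (median-of-ratios scaling), the median was −0.00061, a shift of −0.056, and 1169 genes were higher (11.2%) against 1270 lower (12.2%). Under that scaling 0 members were higher (2 at an unadjusted p below 0.05) and 2 were lower, CTGF and CYR61. Of all 10440 genes tested under it, 1855 were higher and 1936 lower at an unadjusted p below 0.05. The value under median-of-ratios scaling is therefore given as well for each member tested.

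**Figure D1:**
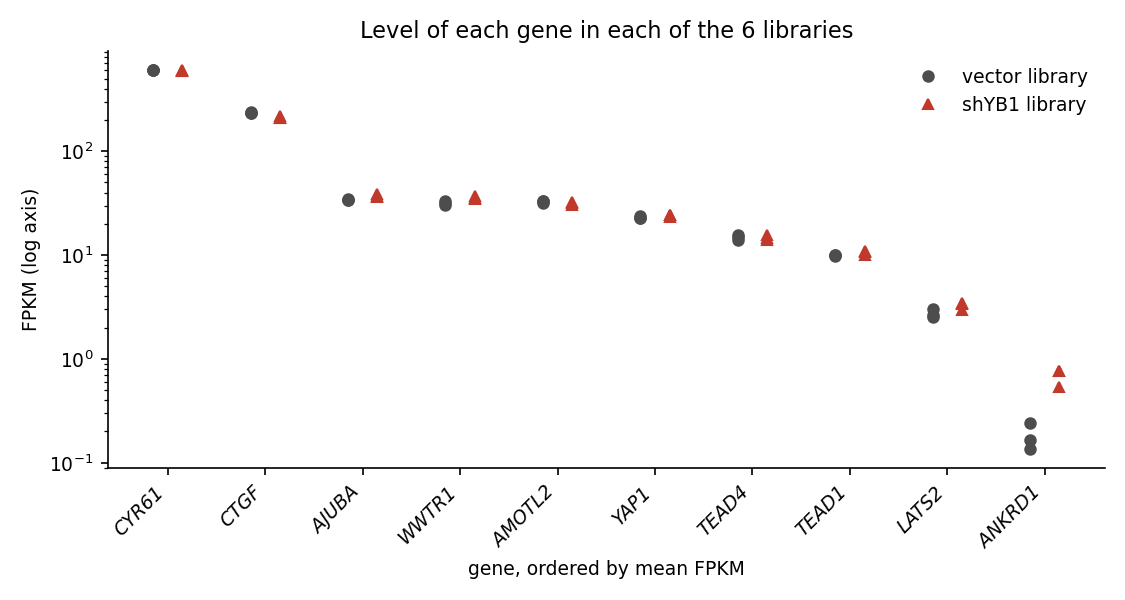
FPKM on a log axis for each of the 10 genes, ordered by mean level, with 1 point for each vector library (circles) and each shYB1 library (triangles). CYR61 was highest in all 6 libraries (585.6 to 609.1 FPKM) and ANKRD1 lowest (0.136 to 0.772 FPKM).

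Levels per length fell in the order CYR61, CTGF, AJUBA, WWTR1, AMOTL2, YAP1, TEAD4, TEAD1, LATS2 and ANKRD1 in mean FPKM over the 6 libraries. CYR61 ranged from 585.6 to 609.1 FPKM and CTGF from 207 to 239 FPKM. These secreted matrix proteins are among the most widely used readouts of YAP and TAZ activity. AJUBA, WWTR1 and AMOTL2 lay between 30.6 and 38.7 FPKM. The ranges of AJUBA and WWTR1 overlapped over the 6 libraries, although AJUBA was above WWTR1 in 6 of 6 of them. The ranges of WWTR1 and AMOTL2 overlapped too, with WWTR1 above in 4 of 6. All other neighbours in the order had ranges that did not overlap.

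The targeted gene was measured as a check of the labels. YBX1, which encodes YB1, fell from 372 ± 5.70 to 169 ± 4.04 FPKM (SD, n = 3 in each group; log2 fold change −1.14, limma adjusted p = 1.53e-08). All 9 markers of renal tubule and ccRCC cells were at 1 FPKM or more in every library, with PAX8 at 75.6 to 78.7 FPKM and CA9 at 6.77 to 8.57 FPKM. Their summed level was 2013 to 2101 FPKM in vector and 2030 to 2064 FPKM in shYB1, most of it from VIM (1366 to 1450 FPKM). Of these markers PAX2 was called higher (mean 17.1 FPKM in vector and 19.0 FPKM in shYB1), and VEGFA (337 and 314 FPKM) and CDH6 (47.9 and 33.0 FPKM, log2 fold change −0.54) were called lower. Their part in the results below was not tested. None of 12 endothelial, leukocyte, fibroblast or muscle markers reached 1 FPKM in all libraries, and CDH5 and CD3E were among those listed at 0 in all 6. Summed levels in vector and shYB1 were 0.523 to 0.564 and 0.436 to 0.524 FPKM for endothelial markers. They were 0.305 to 0.609 and 0.252 to 0.434 FPKM for leukocyte markers, and 0.233 to 0.393 and 0.312 to 0.359 FPKM for fibroblast and muscle markers. In bulk RNA, fewer cells expressing a gene and less RNA per cell cannot be told apart. FPKM totals ran from 282736 to 295887, no counts were at hand and the depth is unknown.

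Of the coactivator genes, WWTR1 passed the test and YAP1 did not. Coordinates are on GRCh38. YAP1 has gene ID 10413 (chromosome 11 from 102110461 to 102233423, plus strand). Its values were 22.9, 23.9 and 22.9 FPKM in vector and 24.4, 24.4 and 23.4 FPKM in shYB1, and the groups overlapped. The means were 23.2 ± 0.570 and 24.1 ± 0.554 FPKM (SD, n = 3 in each group), with a log2 fold change of 0.054 (standard error 0.039, 95% interval −0.033 to 0.14, limma adjusted p = 0.345). With FPKM as deposited this interval leaves room for a rise of up to 0.14 and for a fall of 0.033 on the log2 scale. After median-of-ratios scaling the log2 fold change was −0.0031, with a 95% interval of −0.087 to 0.081. The room for a fall thus depended on the scaling.

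WWTR1 (gene ID 25937, chromosome 3 from 149517235 to 149736714, minus strand) encodes TAZ, the paralog of YAP. Its values were 30.6, 33.3 and 31.9 FPKM in vector and 35.4, 37.0 and 34.8 FPKM in shYB1. The lowest shYB1 library was above the highest vector library, as was true of 30.1% of the genes tested. The mean rose from 31.9 ± 1.34 to 35.7 ± 1.15 FPKM (SD, n = 3 in each group; log2 fold change 0.16, standard error 0.043, 95% interval 0.068 to 0.26, limma adjusted p = 0.0192). An exact permutation test, here and below two-sided, gave p = 0.1, which 3 libraries against 3 cannot go below. The call was lost after median-of-ratios scaling (log2 fold change 0.11, limma adjusted p = 0.0775) and without vector replicate 1 (limma adjusted p = 0.0716) or shYB1 replicate 2 (limma adjusted p = 0.0766), and was kept in 10 of 15 alternative settings.

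The ratio of WWTR1 to YAP1 within a library is not changed by a single scaling factor for that library, although quantile normalization, which acts on each gene by its rank, can change it. Ratios were taken on FPKM as deposited. It was 1.34, 1.39 and 1.40 in vector and 1.45, 1.52 and 1.48 in shYB1. The ratio was thus higher in every shYB1 library than in every vector library, with means of 1.38 ± 0.0342 and 1.48 ± 0.0353 (SD, n = 3 in each group; exact permutation test, p = 0.1). This ratio and the others below were chosen after the values of the genes had been seen.

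Neither TEAD gene passed the test. TEAD factors bind DNA but need YAP, TAZ or another partner to activate transcription. TEAD1 (gene ID 7003, chromosome 11 from 12674591 to 12944483, plus strand) was at 9.73, 10.1 and 9.93 FPKM in vector and at 11.1, 10.7 and 9.99 FPKM in shYB1. Its groups overlapped only through shYB1 replicate 3, which lay within the vector range. The log2 fold change was 0.091 (standard error 0.051, 95% interval −0.023 to 0.21, limma adjusted p = 0.219), and 0.035 after median-of-ratios scaling.

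TEAD4 (gene ID 7004, chromosome 12 from 2959330 to 3040673, plus strand) was at 15.02, 13.97 and 15.6 FPKM in vector and at 13.97, 14.5 and 15.6 FPKM in shYB1. The 2 groups covered nearly the same range. Its log2 fold change was −0.015 (standard error 0.057, 95% interval −0.14 to 0.11, limma adjusted p = 0.876), and −0.071 after median-of-ratios scaling. The ratio of TEAD4 to TEAD1 was 1.50 ± 0.0997 in vector and 1.40 ± 0.153 in shYB1 (SD, n = 3 in each group; exact permutation test, p = 0.3), with overlapping groups.

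The proximal promoters of CTGF and ANKRD1 are shown because these 2 targets had the opposite direction in the data and held the most copies of a TEAD motif among the 7 members whose promoters were searched. Sequences are the 250 bases before the annotated start in RefSeq (GRCh38.p14), 5′ to 3′ along the transcribed strand. CTGF is chr6:131951373-131951622 on the minus strand and ANKRD1 is chr10:90921088-90921337 on the minus strand. Capitals mark the TEAD motif GGAATG and the Y-box motif CCAAT, each searched on both strands, so that a Y-box on the other strand reads ATTGG.
CTGF: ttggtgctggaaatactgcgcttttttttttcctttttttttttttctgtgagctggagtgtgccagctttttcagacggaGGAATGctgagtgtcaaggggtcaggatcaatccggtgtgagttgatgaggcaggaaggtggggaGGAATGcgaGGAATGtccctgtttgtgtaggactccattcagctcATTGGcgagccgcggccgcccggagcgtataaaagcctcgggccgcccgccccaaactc
ANKRD1: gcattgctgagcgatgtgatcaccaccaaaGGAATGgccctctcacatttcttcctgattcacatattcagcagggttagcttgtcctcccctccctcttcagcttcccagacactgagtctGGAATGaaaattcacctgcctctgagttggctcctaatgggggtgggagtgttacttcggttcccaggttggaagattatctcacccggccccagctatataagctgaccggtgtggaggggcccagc

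CTGF held GGAATG starting 169, 104 and 95 bases before the start of the gene, and the Y-box motif 59 bases before it. Of 35116 promoters of this length, 11.9% held at least 1 GGAATG and 0.0826% held at least 3. ANKRD1 held GGAATG 220 and 128 bases before its start, and 0.94% of promoters held at least 2. Entries were found for 7 of the 10 members (not for CYR61, TEAD1 and TEAD4), 10 starts in all, of which 5 starts of 5 members held GGAATG (YAP1, CTGF, ANKRD1, AMOTL2 and AJUBA). CCAAT was present in 32% of all promoters and in 2 of these 10, a start of CTGF and one of AJUBA. These are matches of letters and not measured binding. CTGF and ANKRD1 were shown partly for their number of copies, so the shares of promoters with that many are no test of them.

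CTGF (connective tissue growth factor, gene ID 1490) lies on chromosome 6 from 131948176 to 131951373 on the minus strand, with 5 exons. Its values were 233.7, 233.9 and 238.8 FPKM in vector and 206.7, 215.9 and 207.0 FPKM in shYB1. Every shYB1 library lay below every vector library, as was true of 12.5% of the genes tested. The mean fell from 235 ± 2.93 to 210 ± 5.25 FPKM (SD, n = 3 in each group; log2 fold change −0.17, standard error 0.031, 95% interval −0.24 to −0.097, limma adjusted p = 0.00390). CTGF was called lower under 15 of 15 alternative settings, with log2 fold changes between −0.22 and −0.16, the former after median-of-ratios scaling.

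CYR61 (gene ID 3491, chromosome 1 from 85580761 to 85583962, plus strand) encodes the related matricellular protein CCN1. Its values were 607.9, 609.1 and 601.6 FPKM in vector and 594.3, 599.6 and 585.6 FPKM in shYB1. The 3 shYB1 libraries again lay below the 3 vector libraries, as in 12.5% of the genes tested. The difference in the mean was −2.15% (606 ± 3.995 against 593 ± 7.05 FPKM, SD, n = 3 in each group). The log2 fold change was −0.031 (standard error 0.028, 95% interval −0.094 to 0.031, limma adjusted p = 0.448). Median-of-ratios scaling gave −0.088 (limma adjusted p = 0.0350) and quantile normalization gave 0.052 (limma adjusted p = 0.176), so that its direction depended on the scaling.

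The difference between this pair was measured within each library as the ratio of CTGF to CYR61. It was 0.384, 0.384 and 0.397 in vector and 0.348, 0.360 and 0.354 in shYB1. The ratio was lower in all shYB1 libraries, with means of 0.388 ± 0.00739 and 0.354 ± 0.00619 (SD, n = 3 in each group; exact permutation test, p = 0.1). CTGF relative to CYR61 thus fell by 8.91%.

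ANKRD1 (gene ID 27063, chromosome 10 from 90912096 to 90921276, minus strand) encodes an ankyrin repeat protein of the nucleus and of muscle sarcomeres and is a direct target of YAP and TEAD. Its values were 0.241, 0.164 and 0.136 FPKM in vector and 0.761, 0.772 and 0.536 FPKM in shYB1. The lowest shYB1 library was above the highest vector library. The means were 0.180 ± 0.0547 and 0.689 ± 0.133 FPKM (SD, n = 3 in each group; exact permutation test, p = 0.1). Its mean was below the filter of 1 FPKM, so it was not among the 10439 genes tested.

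In the fit without that filter, on 15988 genes, ANKRD1 was called higher with a log2 fold change of 1.50 (standard error 0.20, 95% interval 1.03 to 1.96, limma adjusted p = 0.00471). In that fit 9.89% of genes were called higher, and 22.7% had groups that did not overlap with shYB1 above. It was also called in 13 of 13 further settings of the unfiltered fit, which were added after its values had been seen (log2 fold changes from 0.52 with a pseudocount of 1 to 1.90). With 0.1 added to values this small the fold depends on the pseudocount, and the fragments behind them are unknown.

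**Figure D2:**
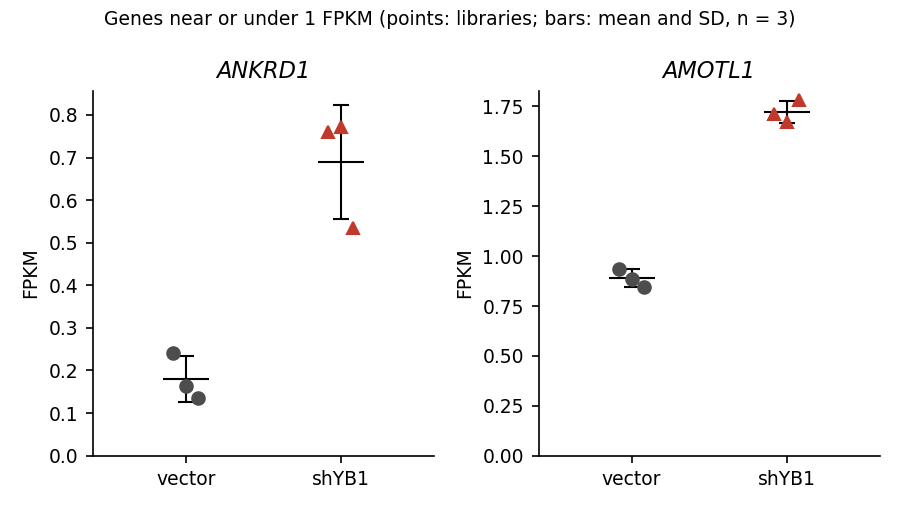
FPKM (axes from 0) of ANKRD1 and AMOTL1 in each vector library (circles) and shYB1 library (triangles), with the mean and SD (n = 3). All shYB1 points were above all vector points for both genes, at means of 0.180 and 0.689 FPKM for ANKRD1 and 0.889 and 1.72 FPKM for AMOTL1. The same was true of 22.7% of the 15988 genes of the unfiltered fit.

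AMOTL2 and LATS2 are targets that restrain YAP and TAZ. AMOTL2 (gene ID 51421, chromosome 3 from 134355874 to 134375479, minus strand) encodes an angiomotin family protein of cell junctions that can hold YAP in the cytoplasm. It was at 33.1, 32.1 and 33.2 FPKM in vector and at 32.3, 31.7 and 30.6 FPKM in shYB1. The groups overlapped, and the log2 fold change of −0.056 was not past the threshold (standard error 0.037, 95% interval −0.14 to 0.026, limma adjusted p = 0.296). After median-of-ratios scaling it was −0.11 (limma adjusted p = 0.0507).

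LATS2 (gene ID 26524, chromosome 13 from 20973032 to 21061547, minus strand) encodes a kinase that phosphorylates YAP and TAZ. It was at 2.67, 3.05 and 2.56 FPKM in vector and at 2.94, 3.37 and 3.47 FPKM in shYB1. The groups overlapped because shYB1 replicate 1 was below vector replicate 2. The mean was 2.76 ± 0.258 in vector and 3.26 ± 0.286 FPKM in shYB1 (SD, n = 3 in each group; log2 fold change 0.23, standard error 0.092, 95% interval 0.031 to 0.44, limma adjusted p = 0.0860). After median-of-ratios scaling the log2 fold change was 0.18 (limma adjusted p = 0.188). Without vector replicate 2 or without shYB1 replicate 1 LATS2 was called higher, with limma adjusted p = 0.0473 and 0.0498.

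AJUBA (gene ID 84962, chromosome 14 from 22971174 to 22982642, minus strand) encodes a LIM domain adaptor that binds LATS kinases at junctions and limits their activity. Its values were 33.7, 34.5 and 33.6 FPKM in vector and 36.4, 38.7 and 37.0 FPKM in shYB1. The groups did not overlap, with shYB1 above, as was true of 30.1% of the genes tested. The mean rose from 34.0 ± 0.469 to 37.4 ± 1.18 FPKM (SD, n = 3 in each group; log2 fold change 0.14, standard error 0.037, 95% interval 0.056 to 0.22, limma adjusted p = 0.0206).

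The call on AJUBA was lost after median-of-ratios scaling (log2 fold change 0.081, limma adjusted p = 0.124), and without vector replicate 1 (limma adjusted p = 0.0619) or shYB1 replicate 2 (limma adjusted p = 0.0877), and was kept in 10 of 15 alternative settings. The call on WWTR1 was lost without the same 2 libraries. With all libraries kept, both calls were also lost under quantile normalization (limma adjusted p = 0.0832 for AJUBA and 0.0796 for WWTR1). The same held for the variance prior without trend (limma adjusted p = 0.0613 and 0.0580). Within libraries the ratio of AJUBA to AMOTL2, the 2 junction adaptors among the members, was 1.04 ± 0.0344 in vector and 1.19 ± 0.0499 in shYB1 (SD, n = 3 in each group; exact permutation test, p = 0.1). The ratio of AJUBA to WWTR1 was 1.06 ± 0.0347 and 1.05 ± 0.0172, with groups that overlapped (exact permutation test, p = 0.6).

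**Figure D3:**
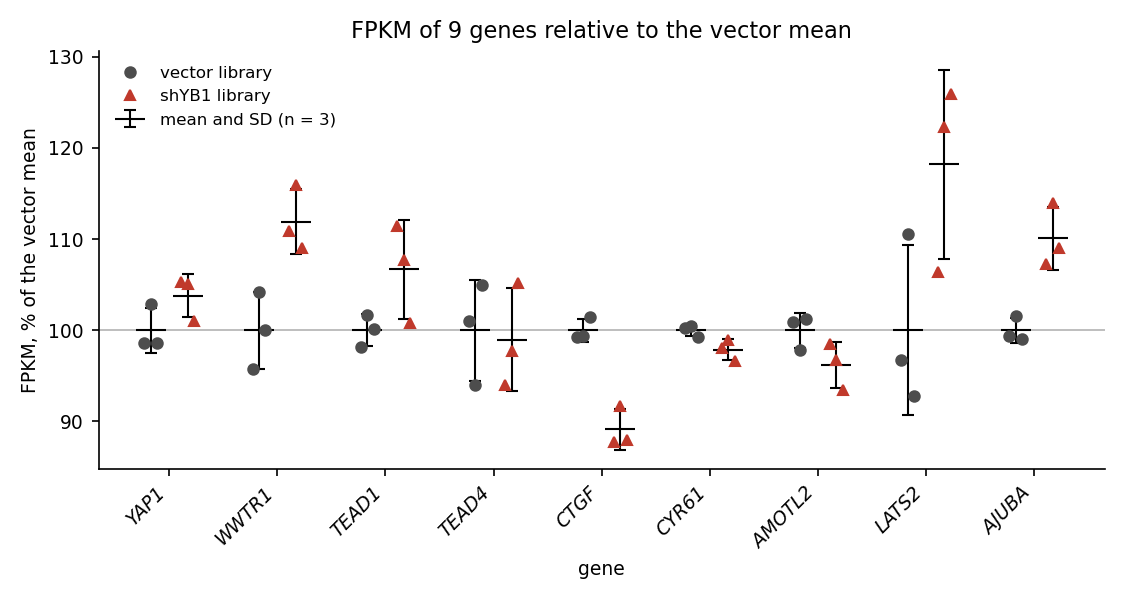
FPKM of 9 genes as a percent of the vector mean of that gene, for each vector library (circles) and shYB1 library (triangles), with the mean and SD (n = 3). All shYB1 points were above all vector points for WWTR1 and AJUBA and below them for CTGF and CYR61, whereas the groups overlapped for YAP1, TEAD1, TEAD4, AMOTL2 and LATS2. Over all genes tested, 30.1% had groups apart with shYB1 above and 12.5% with shYB1 below, so these counts are no result about the members.

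**Figure D4:**
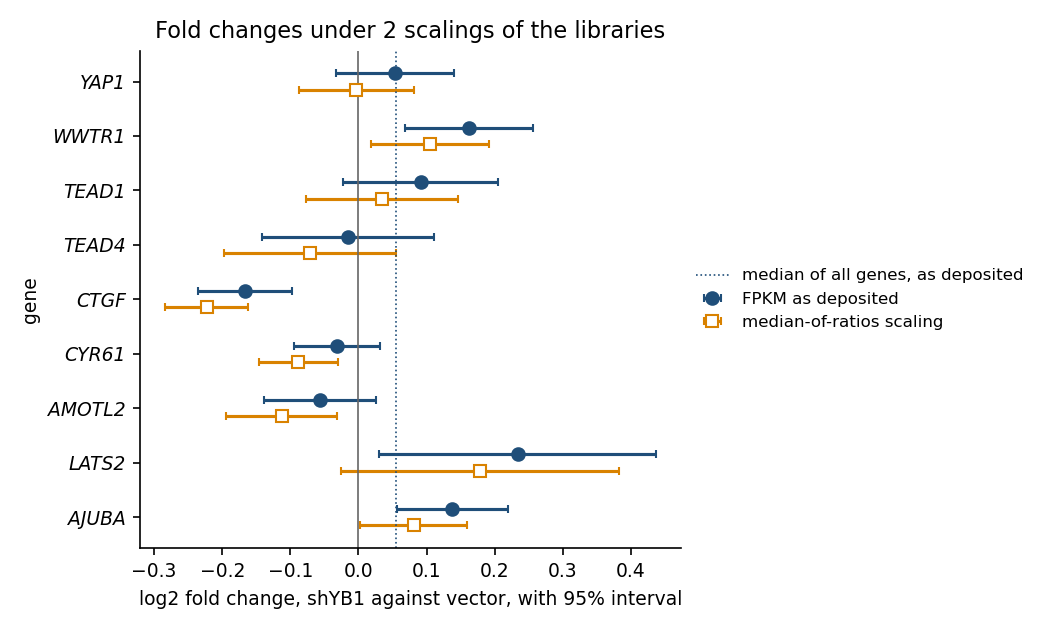
Log2 fold change of shYB1 against vector with its 95% interval for the genes tested, from FPKM as deposited (filled circles) and after median-of-ratios scaling (open squares), with a dotted line at the median of all genes as deposited (0.055). The interval of CTGF lay below 0 under both scalings, and that of WWTR1 above 0 under both although its adjusted p passed 0.05 only with FPKM as deposited.

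Exonic overlap with antisense genes was 628 bases for YAP1, 795 for WWTR1 and 195 for CTGF in the GENCODE 29 annotation of GRCh38. The sources used here do not say whether counting used strand, so reads of these pairs cannot be told apart. Sequence shared with other genes was low, at 0 to 2.23% of 50-base words in the transcripts of each member, with the highest share in AMOTL2 (with RPL39P5).

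Other direct targets of YAP and TAZ were measured as a list of 17 genes that are often used together with the members. FOXF2 was listed at 0 in all libraries and 16 were tested. Of these, 8 were higher in shYB1 and 0 were lower by limma, beside 18.7% and 6.93% of all genes. With an unadjusted p below 0.05 the counts were 9 and 0, beside 2948 and 1125 of all 10439 genes tested. The median log2 fold change was 0.15, with single genes from −0.070 to 0.70, against 0.055 over all genes. After median-of-ratios scaling 7 were higher and 1 was lower, beside 11.2% and 12.2% of all genes. That gene, named after its values had been seen, was IGFBP3, which encodes an insulin-like growth factor binding protein (log2 fold change −0.076, limma adjusted p = 0.0414, against −0.019 with FPKM as deposited).

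The 4 with the largest changes were cell surface and secreted proteins. NT5E, the ectonucleotidase CD73, was at 19.99, 21.5 and 20.6 FPKM in vector and at 33.0, 34.3 and 32.4 FPKM in shYB1 (log2 fold change 0.68, standard error 0.042). AXL, a receptor tyrosine kinase, was at 48.5, 50.4 and 52.1 FPKM in vector and at 72.2, 72.0 and 73.0 FPKM in shYB1 (log2 fold change 0.53, standard error 0.035). In both genes the gap between the groups was several times the spread within them.

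F3, which encodes tissue factor, the initiator of blood clotting, rose from 19.1 ± 0.844 to 30.3 ± 1.32 FPKM (SD, n = 3 in each group; log2 fold change 0.66, standard error 0.048). FJX1, a secreted protein related to the Drosophila regulator four-jointed, rose from 5.15 ± 0.392 to 8.45 ± 0.918 FPKM (SD, n = 3 in each group; log2 fold change 0.70, standard error 0.083, limma adjusted p = 0.000307). These 4 genes were called higher under 15 of 15 alternative settings. Their direction was opposite to that of CTGF in the same libraries.

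A wider signature of 48 genes reported to respond to YAP and TAZ gave a mixed picture. Of the 42 tested, 13 were higher and 4 were lower with FPKM as deposited, beside 18.7% and 6.93% of all genes tested. After median-of-ratios scaling 9 were higher and 8 lower, beside 11.2% and 12.2%. Their median log2 fold change was 0.039, below the median of all genes of 0.055, and single genes ranged from −0.31 to 0.52.

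The highest of this signature were ETV5, a transcription factor of the ETS family, and DDAH1, an enzyme that degrades methylarginines. ETV5 rose from 7.42 ± 0.365 to 10.7 ± 0.138 FPKM (SD, n = 3 in each group; log2 fold change 0.52, standard error 0.052). DDAH1 rose from 11.3 ± 1.35 to 15.3 ± 0.573 FPKM (SD, n = 3 in each group; log2 fold change 0.45, standard error 0.079). The integrin subunit gene ITGB5 rose by 0.36 on the log2 scale.

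Of the lower genes, SGK1, a kinase of ion transport and cell survival, fell from 7.47 ± 0.323 to 6.003 ± 0.239 FPKM (SD, n = 3 in each group; log2 fold change −0.31, standard error 0.057, limma adjusted p = 0.00351). CDKN2C, an inhibitor of cyclin-dependent kinases, fell from 52.7 ± 2.36 to 45.2 ± 1.03 FPKM (SD, n = 3 in each group; log2 fold change −0.22). BICC1, an RNA-binding protein, and DAB2, an endocytic adaptor, both had a log2 fold change of −0.14 (limma adjusted p = 0.0303 and 0.0433). BICC1 was called in 10 of 15 alternative settings and DAB2 in 7 of 15. The call on BICC1 was lost without any 1 library other than vector replicate 3 (limma adjusted p from 0.0612 to 0.0849), and that on DAB2 without any 1 library other than vector replicate 1 (limma adjusted p from 0.0736 to 0.130).

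**Figure D5:**
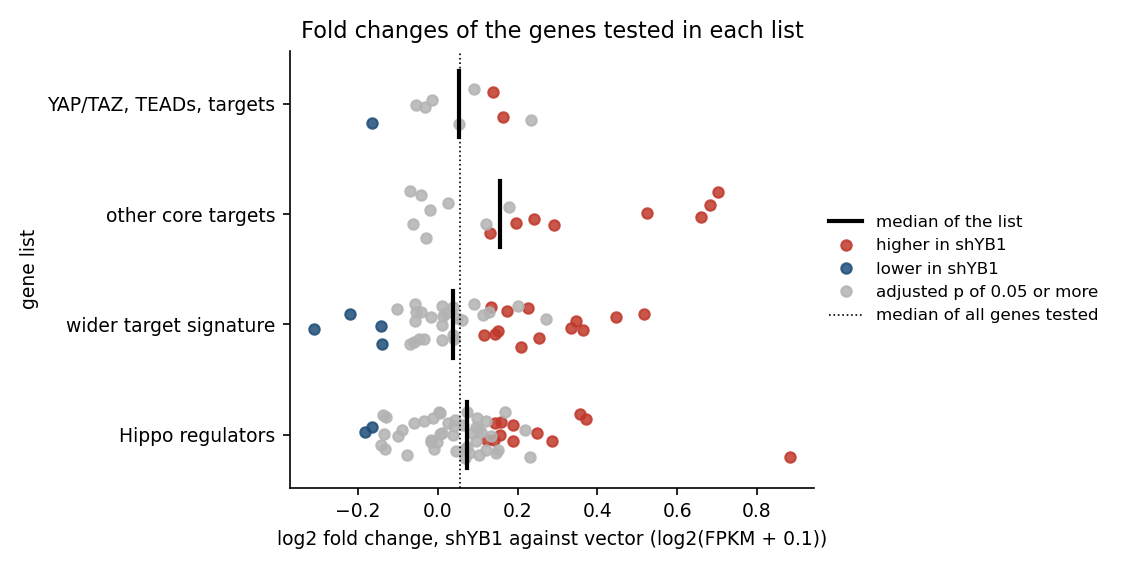
Log2 fold change of shYB1 against vector for each gene tested in 4 lists (9 of YAP/TAZ, TEADs and targets, 16 other core targets, 42 of the wider signature and 59 Hippo regulators), coloured by the call, with the median of each list as a black bar and that of all genes tested as a dotted line (0.055). The other core targets had the highest median (0.15). Of them 0 were called lower, beside 6.93% of all genes tested. After median-of-ratios scaling their median was 0.098 and 1 was called lower, beside 12.2% of all genes.

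The upstream regulators of the pathway were a list of 67 genes, of which 59 were tested. With FPKM as deposited 12 were higher and 2 were lower, beside 18.7% and 6.93% of all genes tested. After median-of-ratios scaling 7 were higher and 7 lower, beside 11.2% and 12.2%. The median log2 fold change was 0.072, against 0.055 over all genes. Of the 14 kinases tested, among them MST1/2 (STK4 and STK3) and LATS1, 0 were called in either direction by limma (1 higher and 1 lower at an unadjusted p below 0.05, and 2 lower after median-of-ratios scaling). Of 4 genes for the degradation of YAP and TAZ, 0 were called (0 at an unadjusted p below 0.05, and 1 lower after median-of-ratios scaling). Over all 10439 genes tested with FPKM as deposited, 2948 were higher and 1125 lower at an unadjusted p below 0.05.

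Among the 8 scaffolds of the kinases, MOB1A and FRMD6 were higher with FPKM as deposited and 0 were called after median-of-ratios scaling (1 higher and 1 lower at an unadjusted p below 0.05). Beside the calls of these groups stand 18.7% higher and 6.93% lower among all genes tested, and 11.2% and 12.2% after median-of-ratios scaling. Beside the unadjusted counts stand 2948 higher and 1125 lower of 10439 genes, and 1855 and 1936 of 10440 after that scaling. Of 10 genes of the STRIPAK phosphatase complex, which dephosphorylates MST kinases, SLMAP, PPP2R1A and PPP2CA were higher and 0 were lower by limma (5 higher and 1 lower at an unadjusted p below 0.05). After median-of-ratios scaling 2 were higher and 1, STRN3, was lower, and the call on PPP2CA was lost (limma adjusted p = 0.244). Of 7 genes for 14-3-3 proteins, YWHAH, YWHAQ and YWHAZ were higher and 0 were lower (3 and 0 at an unadjusted p below 0.05), and 2 were higher and 0 lower after median-of-ratios scaling, which ended the call on YWHAH (limma adjusted p = 0.0955). These scaffold, STRIPAK and 14-3-3 genes are named for the count alone, after their values had been seen.

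The largest change among the regulators was in AMOTL1, an angiomotin family paralog of AMOTL2. It was at 0.936, 0.883 and 0.847 FPKM in vector and at 1.71, 1.67 and 1.78 FPKM in shYB1. The groups were far apart relative to their spread, with means of 0.889 ± 0.0447 and 1.72 ± 0.0565 FPKM (SD, n = 3 in each group; log2 fold change 0.88, standard error 0.094, limma adjusted p = 0.000148). AMOTL1 passed the filter of 1 FPKM only through the shYB1 group. The third family member, AMOT, was between 0.0490 and 0.102 FPKM and was not tested. WTIP, a LIM adaptor related to AJUBA, rose from 1.93 ± 0.0326 to 2.39 ± 0.279 FPKM (SD, n = 3 in each group; limma adjusted p = 0.0465), a call kept in 5 of 14 alternative settings. It was lost without any 1 library other than shYB1 replicate 2 (limma adjusted p from 0.0662 to 0.154).

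Among the partners of TEAD factors, VGLL4, a cofactor that competes with YAP for TEAD binding, was at 12.1, 11.7 and 12.2 FPKM in vector and at 10.7, 10.9 and 10.6 FPKM in shYB1. All shYB1 libraries were lower than all vector libraries, as in 12.5% of the genes tested. The log2 fold change was −0.16 (limma adjusted p = 0.0205, and 0.00588 after median-of-ratios scaling), and it was called in 11 of 15 alternative settings. The call was lost without replicate 1 or 3 of either group (limma adjusted p from 0.0531 to 0.0650). VGLL1, VGLL2 and VGLL3 were at or near 0. TEAD3 was at 2.80 ± 0.111 and 3.31 ± 0.557 FPKM and was not called (SD, n = 3 in each group; limma adjusted p = 0.159), and TEAD2 was at 0 to 0.120 FPKM.

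Of the 11 polarity and junction genes tested, SCRIB and TJP1 rose and DLG1 fell, where 18.7% and 6.93% of all genes were called higher and lower. After median-of-ratios scaling 2 were higher and 2 lower, beside 11.2% and 12.2% of all genes. LLGL1 was added to the lower genes (limma adjusted p = 0.0479), and is named after its values had been seen. SCRIB, a scaffold of the basolateral membrane, rose from 21.9 ± 0.595 to 28.0 ± 1.02 FPKM, and TJP1, the tight junction protein ZO-1, from 5.95 ± 0.152 to 7.72 ± 0.249 FPKM (SD, n = 3 in each group; log2 fold changes 0.36 and 0.37). DLG1, which acts with SCRIB, fell from 9.50 ± 0.462 to 8.34 ± 0.0958 FPKM (SD, n = 3 in each group; log2 fold change −0.18, limma adjusted p = 0.0255), a call kept in 10 of 15 alternative settings. It was lost without any 1 library other than vector replicate 3 (limma adjusted p from 0.0571 to 0.0838).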

How the data were processed

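RNA sequencing covered 3 vector and 3 shYB1 libraries of 786-O cells. The authors deposited FPKM for 20030 genes, and the submitters' processing notes name Trimmomatic, HISAT2, Cufflinks, HTSeq, DESeq and GRCh38, with no version. Each of the 6 value columns entered the tests (0 unused). Genes averaging 1 FPKM or more over the 6 libraries were taken to log2 after adding 0.1 and tested two-sided with limma 3.58.1 in R 4.3.3 (trend and robust options) without a replicate block, with Benjamini-Hochberg adjustment over all 10439 genes. Depth per library is unknown, because FPKM hold no counts. This fit was also run on simulated data, with results not given here. Single values were compared by exact permutation tests (SciPy 1.17.1).

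The members and lists were chosen with earlier results of these data known. Named genes were the 10 members, YBX1, the 4 genes with the largest rise and the 4 with the largest fall among the calls of each other list, and the 3 genes nearest in profile to CTGF and to CYR61. Values of some genes under this rule are not given. Tests were repeated with pseudocounts of 1 or 0.01, no filter, a filter at 5 FPKM, median-of-ratios, TPM and quantile scaling, no trend in the variance prior, a replicate block, and each library left out. Coordinates are of GENCODE 29 on GRCh38.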

Additional observations from a re-analysis of the deposited data

How the results depend on the processing

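The call on CTGF kept its direction and its side of the threshold under 15 of 15 alternatives (limma adjusted p from 0.000461 to 0.0317). Of the 18 genes that the naming rule covers in the other lists, 13 were called in every alternative run that tested them. AMOTL1, 1 of these 13, was below the filter at 5 FPKM and was tested in 14 runs. The 18 were picked as the largest changes among the calls of the main fit, on the same 6 libraries. Their staying called is therefore no separate support. Median-of-ratios and quantile scaling moved the balance of higher and lower calls. All genes higher numbered 1169 and 1267 under these, and all genes lower 1270 and 1184, of 10440 and 10439 tested. Members higher numbered 0 under median-of-ratios scaling, 0 under quantile normalization and 0 under the variance prior without trend by limma, and 0 to 3 with 1 library left out (0 without vector replicate 1 or without shYB1 replicate 2). All genes higher numbered 1660 of 10439 under that variance prior and 1324 to 1948 with 1 library left out. Under median-of-ratios scaling members lower numbered 2 of 9 tested, other core targets lower 1 of 16 and the wider signature lower 8 of 42. Of 59 Hippo regulators 7 were higher and 7 lower under it, where 11.2% of all genes were higher and 12.2% lower. Under quantile normalization Hippo regulators lower numbered 7. With 1 library left out the wider signature lower ranged from 2 to 4, Hippo regulators lower from 0 to 1 and all genes lower from 517 to 609. The log2 fold change of YAP1 was −0.0031 and −0.0065 under median-of-ratios and quantile scaling, that of CYR61 was 0.052 under quantile normalization, and that of TEAD4 ran from −0.059 to 0.021 with 1 library left out, above 0 without vector replicate 3 and without shYB1 replicate 1. The cause was not tested. Depth is unknown, and ANKRD1 was under 1 FPKM in every library.

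Same-numbered libraries of the 2 groups showed no positive correlation of their deviations (Pearson's r across genes of −0.169, −0.059 and −0.00824). Pairs with unlike numbers ran from −0.0507 to 0.113. Deviations were taken from group means of 3 libraries, so these values cannot settle whether the numbers pair the samples. A replicate block gave 2074 genes higher and 760 lower and left the calls on the members unchanged at 2 higher and 1 lower.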

Other observations

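The genes whose profile over the 6 libraries was most like that of CTGF were RAB11A, a small GTPase of recycling endosomes, MSN, which encodes the membrane linker moesin, and TRABD2B, a metalloprotease that cleaves Wnt proteins. The root-mean-square difference of their centred log2 values from those of CTGF was 0.0105, 0.0128 and 0.0149, where the median gene differed by 0.140. RAB11A was at 26.7 FPKM in vector and 23.8 FPKM in shYB1, and MSN at 196 and 176 FPKM. For CYR61 the nearest genes were XRN2, a nuclear exonuclease, MYO1E, a class I myosin, and LITAF, an endosomal membrane protein, with differences of 0.00781, 0.00798 and 0.00991 against a median of 0.0995. These likenesses are descriptions over 6 libraries, chosen as the nearest among 10439 genes tested.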
